A study of Arabidopsis thaliana with 6 samples.

Results

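Both control arrays taken at 6 h were compared with each other. They come from a microarray study of inducible gene expression in Arabidopsis thaliana, and the sampled tissue was the shoot apical meristem with juvenile leaves. One control, called the XVE array here, held RNA from plants with XVE alone that were brushed with 20 μM 17-β-estradiol on the meristem. The other, called the DMSO array, held RNA from plants with XVE and AMY3C-EY that were brushed with DMSO, the solvent. The study has 6 arrays in all, and the other 4 (XVE AMY3C-EY plants untreated at 0 h, or 1 h, 3 h and 6 h after 20 μM estradiol) are used only to show where a level lies. All plants were 21 days old, grown in soil under long days, and each array held the pooled RNA of 30 plants. XVE is a chimeric transcription factor that estradiol activates. The labels do not describe the AMY3C-EY cassette, nor whether a line is 1 transformant or several.

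Members were the probes that the scanner software flagged as well above background on both control arrays, 29132 of 43603 probes. Of these, 25084 were named by 1 gene and gave 18497 genes out of 25383 that any probe names. A gene's level is the mean log2 value of its probes that pass, on the authors' scale, where 0 is close to the array's 75th percentile. A difference is always the level on the XVE array minus the level on the DMSO array, so a positive value means higher on the XVE array. There was 1 array a side, so no difference was tested. The 2 arrays differ in line and in agent together: the part of the construct and the part of estradiol against DMSO cannot be told apart.

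As background, a negative control for an estradiol-inducible line can be built in either of these ways: give the inducer to plants without the construct, or give the solvent to plants with it. Leaf primordia beside the meristem turn into green photosynthetic tissue, and the nuclear genes for the photosystems, their antenna proteins and the carbon-fixing enzymes are switched on together as leaf cells mature. Phloem, which loads and carries sucrose, differentiates in the same primordia. A dissected apex therefore carries meristem transcripts and transcripts of young leaves, in a mixture that depends on how much leaf is taken. In bulk RNA, more cells of a type and more RNA per cell cannot be told apart.

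Among the gene lists examined, photosynthesis genes lay farthest from 0, and they were higher in XVE plants with estradiol. Of 47 photosystem and light-harvesting genes, 46 were higher on the XVE array, 20 of them by at least 2-fold and 0 lower by 2-fold, with a median difference of 0.92. All 28 Calvin cycle and photorespiration genes were higher too, 5 by at least 2-fold, with a median of 0.68. Over all genes compared, 361 (1.95%) were higher by 2-fold or more and 374 (2.02%) lower, 735 (3.97%) in either direction, and the median was -0.02. On the lower side, flavonoid, endoplasmic reticulum folding, floral, abscisic acid and water stress, and ribosomal protein genes had medians between -0.33 and -0.50. The floral median depended on the processing, as given below.

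**Figure D1:**
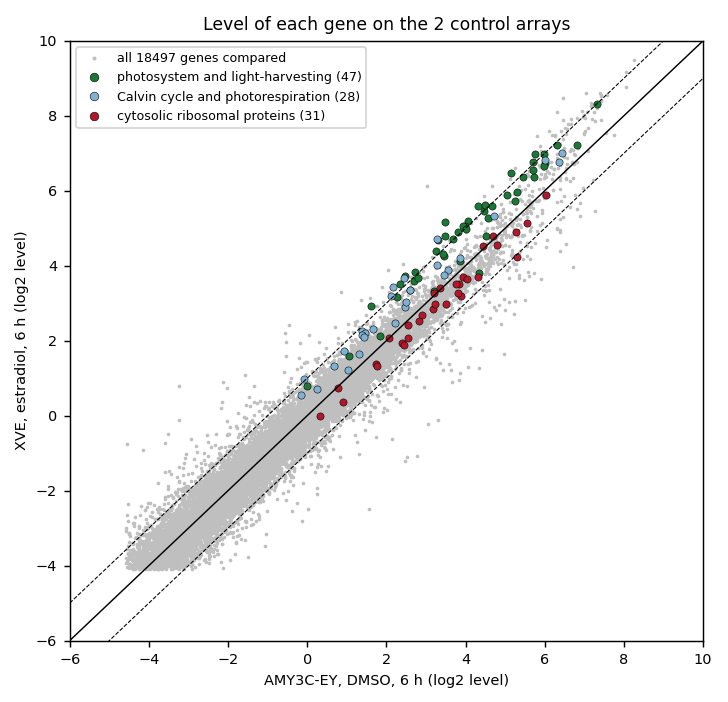
Log2 level of each of 18497 genes on the XVE array (vertical) against the DMSO array (horizontal), with the solid line at equality and the dashed lines at 2-fold. Photosystem genes (green, 47) and Calvin cycle genes (blue, 28) lie above the solid line except 1 green point, and 26 of the 31 ribosomal protein genes (red) lie below it.

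LHB1B1, a chlorophyll a/b-binding protein of the photosystem II antenna, had a level of 5.16 on the XVE array, against 3.48 on the DMSO array, a difference of 1.68. On the other 4 arrays its level was 2.72 (0 h), 2.89 (1 h), 2.88 (3 h) and 1.98 (6 h of estradiol). The DMSO array was thus above those 4 arrays as well, and the XVE array was farther above them. LHCB2.3 and LHCB2.2, antenna proteins of the same complex, had levels of 4.69 against 3.31 and of 4.80 against 3.47, differences of 1.38 and 1.33. LHCA3, an antenna protein of photosystem I, had a level of 6.46 on the XVE array, against 5.15 on the DMSO array, a difference of 1.31. PSBO2, a subunit of the oxygen-evolving complex of photosystem II, had a level of 2.93 against 1.61, a difference of 1.31. For each of these 5 genes the XVE array had the highest level of the 6.

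Across the photosystem list this held for 46 of 47 genes, while the XVE array was the highest of 6 for 21.6% of all genes. The median level of the list was 5.05 on the XVE array, against 4.01 on the DMSO array, against 3.76 at 0 h, 3.86 at 1 h, 3.57 at 3 h and 3.47 at 6 h of estradiol. The DMSO array lay within the range of the 4 time-course arrays for 21 of the 47 genes and the XVE array for 0. The time course was hybridised on another slide, so a level set against it also compares slides, whereas the XVE and DMSO arrays shared 1 slide. The exception, LHCA6, named because it is the only member below 0, is a photosystem I antenna gene read by 1 probe, with levels of 3.80 and 4.34. Copies of the antenna genes are alike in sequence, and how far a probe of one copy also reads another was not tested.

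Single probes repeated the direction. The 47 photosystem genes were read by 137 probes, of which 135 were above 0, 60 by at least 2-fold, and 0 were at least 2-fold below. The 28 Calvin cycle and photorespiration genes were read by 106 probes, of which 103 were above 0, 34 by 2-fold or more, and 1 was lower by that much. Over all 25084 named probes, 49.3% were above 0. RBCS1A, a small subunit of Rubisco and a marker fixed for leaf, had 13 probes with differences from 0.31 to 1.23, a mean of 0.81 and an SD of 0.32 over probes. Its level was 6.83 on the XVE array, against 6.02 on the DMSO array, and between 5.21 and 6.19 on the other arrays.

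RCA, the activase that frees Rubisco of bound sugar phosphates, had a level of 4.71 on the XVE array, against 3.28 on the DMSO array, a difference of 1.43. Its 9 probes ran from 0.42 to 2.01. CA1, a carbonic anhydrase of the chloroplast, had a level of 3.44 against 2.17, a difference of 1.26, with 8 probes from 0.13 to 2.26. All probes of both genes were thus on the same side of 0, with a spread of more than 2-fold among them. FBA1, a plastid fructose-bisphosphate aldolase, had a level of 3.68 against 2.45, a difference of 1.23. GAPB, a subunit of the chloroplast glyceraldehyde-3-phosphate dehydrogenase, had 3.18 against 2.1, a difference of 1.08. HPR, the peroxisomal hydroxypyruvate reductase of photorespiration, had 0.97 against -0.09, a difference of 1.05.

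Chlorophyll biosynthesis genes differed less as a group. Of 22 genes, 16 were higher on the XVE array, 2 of them by at least 2-fold and 0 lower by 2-fold, with a median of 0.28. GUN4, which activates magnesium chelatase, had a level of 7.46 on the XVE array, against 5.81 on the DMSO array, a difference of 1.65. On the other arrays GUN4 lay between 5.99 and 7.06, so the DMSO array was the lowest of 6 and the XVE array the highest. The XVE array was also the dimmest of the 6, with a 75th percentile of the processed intensity of 341.6 against 904.7 on the DMSO array. The part of array brightness in the GUN4 difference was not tested. CRD1, a subunit of the cyclase that makes protochlorophyllide, had 4.22 against 3.15, a difference of 1.08. GUN5, the large subunit of magnesium chelatase, had 6.06 against 5.49, and HEMA1, which starts tetrapyrrole synthesis, had 4.31 against 3.85.

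**Figure D2:**
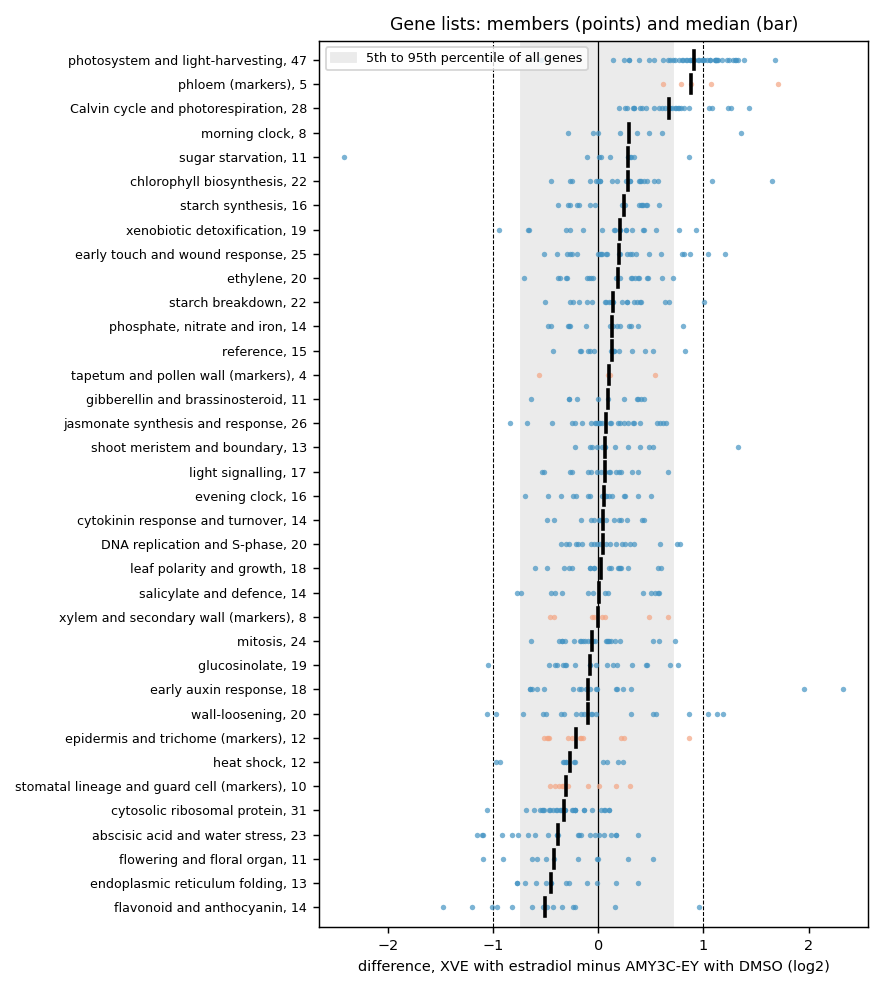
Difference of each gene (points, log2, XVE with estradiol minus AMY3C-EY with DMSO) and the median (black bar) for each gene list (blue) and for marker lists with at least 4 genes compared (orange), with the number of genes compared after each name. The shoot meristem and leaf marker lists, with medians of 0.11 and 0.81, are not drawn. The grey band is the 5th to 95th percentile of all genes (-0.73 to 0.71), and the photosystem (0.92) and phloem (0.88) medians lie to the right of it.

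Phloem markers were higher on the XVE array in the same samples. All 5 markers compared were above 0, with a median of 0.88, and their summed linear level was 5.46 on the XVE array, against 2.81 with DMSO and 1.77 to 2.22 on the other 4. SWEET11, a sucrose exporter of phloem parenchyma, had a level of 0.26 on the XVE array, against -1.44 on the DMSO array, a difference of 1.71. SUC2, the sucrose-proton symporter of companion cells, had -1.96 against -3.03, a difference of 1.07 over 3 probes that ran from 0.77 to 1.36. PP2-A1, a phloem lectin, had -0.22 against -1.10. CALS7, the callose synthase of sieve plates, had 1.43 against 0.64. AT1G79430 (APL), a regulator of phloem identity, had -1.15 against -1.76, and SWEET12 and FTIP1 did not pass on both arrays. Each of the 5 genes was highest on the XVE array among the 6.

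Meristem markers were close on both arrays. STM, the KNOX factor that keeps meristem cells undifferentiated, had a level of -3.17 on the XVE array, against -3.66 on the DMSO array. CLV3, the stem cell peptide, had 0.72 against 0.56. CLV1, its receptor kinase, had -0.41 against -0.48, and KNAT1, another KNOX factor, -0.50 against -0.56. These 4 differences had a median of 0.11 and 0 of them reached 2-fold. WUS, the organising-centre factor, did not pass on both arrays, so 1 of the 5 defining meristem markers was not compared. The leaf markers AS1 and YAB1, which are not photosynthesis genes, differed by 0.22 and 0.19, whereas RCA, LHCB3 and RBCS1A differed by 1.43, 1.29 and 0.81.

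Other tissue markers gave smaller values. Epidermis and trichome markers had a median of -0.21 over 12 genes, with 9 below 0, and their summed level was 47.3 on the XVE array, against 55.7 on the DMSO array. CUT1, a wax-forming condensing enzyme, went the other way, with -0.31 against -1.17, a difference of 0.87 over 6 probes. Stomatal markers had a median of -0.31 over 10 genes and a summed level of 2.89 against 3.54, both below the 4.53 to 5.75 of the time course. Under normexp background correction that median turned to 0.24, or 0.11 relative to the median of all genes in that setting. Xylem markers had a median of 0.00 over 8 genes. Tapetum markers had 4 of 10 genes compared, with a median of 0.10, and AMS, TDF1 and MS2 did not pass. Seed and root markers had only 3 of 7 and 2 of 6 genes compared. The part of tissue makeup in any difference between the controls was not tested.

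Beyond photosynthesis, the higher genes that rested on more than 1 probe were led by AT1G23130, AT1G67865 and a neighbouring pair of ferric reduction oxidase genes. Among the 5093 genes read by several probes, 66 (1.3%) were higher by 2-fold or more and 23 (0.452%) lower. All probes were above 0 for 66 of the 66 higher genes, and all were below 0 for 19 of the 23 lower ones. Both sets were chosen by the mean of the same probes, so this agreement in sign is largely set by that choice. Photosynthesis genes of the first 2 lists made up 23 of those 66. Several probes read 37 of the 47 photosystem genes and 26 of the 28 Calvin cycle genes, against 5093 of all 18497 genes. The several-probe set is thus richer in these lists from the start. Of those 37 and 26 genes, 18 and 5 were higher by 2-fold or more. Photosynthesis genes made up 25 of all 361 higher genes, 6.93% of the higher genes. These were 33.3% of the 75 photosynthesis genes, against 1.95% of all genes. In 18 genes all probes were at least 2-fold higher, and in 4 genes all were at least 2-fold lower.

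FRO6, a ferric-chelate reductase of green tissue, had a level of 3.29 on the XVE array, against 0.84 on the DMSO array, a difference of 2.45 with probes at 2.41 and 2.48. On the other 4 arrays FRO6 lay between -0.49 and 0.45. FRO7, the chloroplast ferric-chelate reductase encoded beside FRO6, had a level of 0.37 against -2.15, a difference of 2.52 with probes at 1.88 and 3.16. On the time course FRO7 lay between -4.04 and -3.03. Both genes thus had the DMSO array above the time course and the XVE array above the DMSO array.

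AT1G23130 had a level of 2.2 on the XVE array, against -0.57 on the DMSO array, a 6.85-fold difference with probes at 2.76 and 2.79, and it lay between -1.54 and -0.96 on the other arrays. AT1G67865 had 1.08 against -1.58, a difference of 2.66. Its neighbour AT1G67860 had -0.53 against -2.03, a difference of 1.50. MT3, a metallothionein, had 3.87 against 2.04, a difference of 1.83, with 4 probes between 1.61 and 2.02 and a range of 1.16 to 1.62 on the other arrays. NHL1, of the NDR1/HIN1-like family, had -0.70 against -2.50, and AT3G11930 had 0.37 against -1.34. AT5G14780, which encodes formate dehydrogenase, had -1.01 against -2.60, a difference of 1.59 over 3 probes. AT4G00780 had 0.08 against -1.74, with probes at 1.06 and 2.58. In each of these 8 genes the XVE array had the highest level of the 6.

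**Figure D3:**
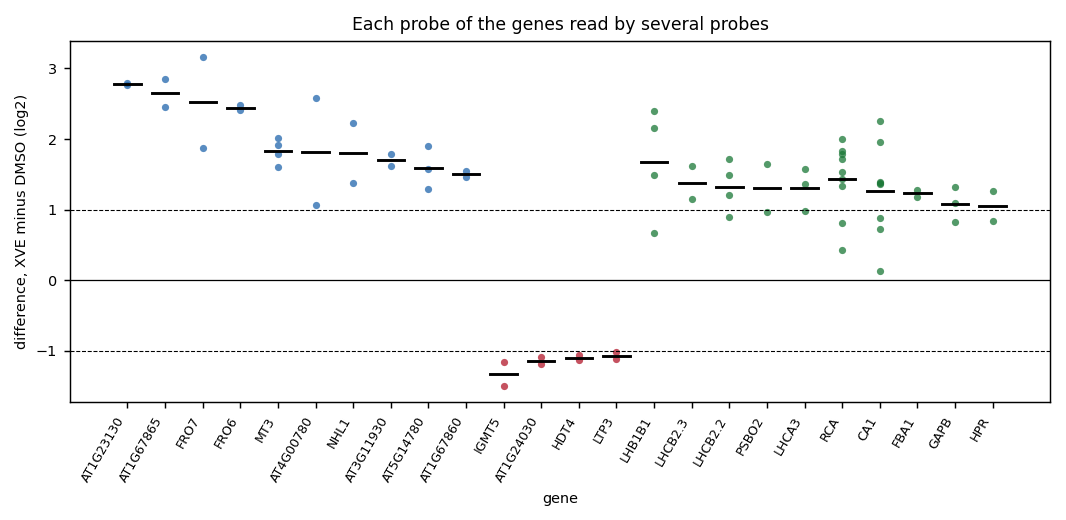
Difference of each probe (points, log2, XVE minus DMSO) and the gene's mean (black bar) for genes read by several probes, with dashed lines at 2-fold. The genes with all probes at least 2-fold apart are blue (higher) and red (lower), and the leading photosystem and Calvin cycle genes are green, with CA1 running from 0.13 to 2.26 while all probes of FRO6 lie within 2.41 and 2.48.

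The lower genes with several probes differed by less. IGMT5, an O-methyltransferase of indole glucosinolates, had a level of -1.04 on the XVE array, against 0.28 on the DMSO array, a difference of -1.32 with probes at -1.49 and -1.15. On the time course IGMT5 went from -2.21 at 0 h to 0.76 at 6 h of estradiol, so the XVE array lay inside that range. LTP3, a lipid transfer protein, had -1.54 against -0.46, a difference of -1.07, and both arrays were above its 0 h level of -3.56. AT1G24030 had -1.07 against 0.07, a difference of -1.14. HDT4, a plant-specific histone deacetylase, had -0.67 against 0.42, a difference of -1.09. In AT1G24030 the XVE array was the lowest of 6, and in HDT4 it was the second lowest after the 1 h array at -1.73. Under normexp background correction IGMT5 stayed at least 2-fold lower (-1.05). In that setting AT1G24030 (-0.77), HDT4 (-0.70) and LTP3 (-0.59) fell inside 2-fold, and the median of all genes moved to 0.13.

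The farthest single genes were mostly read by 1 probe, so their values have no second probe behind them. Of the 361 higher genes 81.7% were read by 1 probe, of the 374 lower genes 93.9%, and of all genes 72.5%. At least 4-fold, 28 genes (0.151%) were higher and 41 (0.222%) lower. Of the 15 farthest higher genes 4 had several probes, and of the 15 farthest lower genes 0 had.

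AT5G46310 was farthest higher, with a level of 0.78 on the XVE array, against -3.25 on the DMSO array, a 16.3-fold difference. On the other arrays it was at -1.28 (0 h), -1.99 (1 h), -3.63 (3 h) and 0.07 (6 h of estradiol). The level at 6 h of estradiol was thus close to that on the XVE array, and the 3 h level close to that on the DMSO array. AT3G26855 had -0.75 against -4.56, which was near the lowest level that passed on the DMSO array (-4.57). AT5G63270 had -0.91 against -4.14. Both genes had the same order of the 6 arrays as AT5G46310. AT2G31210 had -0.13 against -3.25, with the 1 h and DMSO arrays changing places in that order. In 9 of the 15 farthest higher genes the XVE array and the 6 h estradiol array were the 2 highest of the 6, all 9 of them read by 1 probe. The same held for 75 of all 361 higher genes, and for 812 of all 18497 genes compared (4.39%). The higher genes were chosen for a high value on the XVE array, so its place among the 2 highest is largely set by that choice and the counts are a description. Both of those arrays had estradiol for 6 h, but they lay on different slides. In 4 of the 15 farthest higher genes, each read by 1 probe, the 3 h and DMSO arrays were also the 2 lowest. Both conditions held for 71 of all 18497 genes (0.38%). The choice of genes also favours a low DMSO level. The 3 h and DMSO arrays were the brightest, with 75th percentiles of the processed intensity of 1435.4 and 904.7. The XVE array was the dimmest (341.6). The part of array brightness in this order was not tested.

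UGT72E3, a monolignol glucosyltransferase, was brighter. Its level was 6.12 on the XVE array, against 3.03 on the DMSO array, an 8.51-fold difference, and between 1.92 and 3.21 on the others. A second probe that did not pass on both arrays lowered that difference to 1.78 when dim probes were kept. PUB24, a U-box ubiquitin ligase, had 1.98 against -0.53, a difference of 2.50. AT2G32870 had -0.50 against -3.52 and stood in a run of 3 neighbouring genes at least 2-fold higher. AT5G18600 had 0.75 against -2.02, AT3G09620 had 0.90 against -2.14, AT5G40400 had 2.41 against -0.46 and AT3G26440 had -0.73 against -3.58. Processed in other ways, the AT5G40400 difference of 2.87 ran from 1.36 to 2.94. The XVE array was the highest of 6 for all 15 farthest higher genes.

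AT5G08505 was farthest lower, with a level of -2.50 on the XVE array, against 1.55 on the DMSO array, a 16.5-fold difference. On the other arrays it lay between -2.67 and -1.50, so the DMSO array alone was high. AT4G20000 had -1.07 against 2.78 and AT1G79910 had -1.11 against 2.53, and their other 4 levels ran from -0.89 to -0.31 and from -2.07 to -0.58. These 3 genes were thus high on the DMSO array only. B ALPHA, a regulatory subunit of protein phosphatase 2A, had 3.96 against 6.72, with 1.82 to 3.90 on the other arrays. AT3G28510 had 1.29 against 4.05, with -0.11 to 0.94 on the others.

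A second pattern among the lower genes was a low level on both the XVE and the 1 h array. AT1G57690 had a level of -1.21 on the XVE array and -1.36 at 1 h, against 2.46 on the DMSO array and 2.42, 1.88 and 1.89 at 0 h, 3 h and 6 h of estradiol. AT4G26030 had -0.12 on the XVE array, against 3.29 on the DMSO array, and AT1G54840 had 1.65 against 4.97. AT3G16650 had 1.28 against 4.33, LigB, an extradiol ring-cleavage dioxygenase, 0.89 against 3.67, AT1G51270 0.95 against 3.83 and AT4G01700 1.13 against 3.87. AT4G12670 had -0.23 against 3.06, AT4G14280 -0.64 against 2.14 and AT1G44941 -2.81 against -0.13. The XVE and 1 h arrays were the 2 lowest for 11 of the 15 farthest lower genes (AT4G20000 is the other one) and 183 of the 374 lower genes. Over all genes compared this held for 2193 of 18497 (11.9%). The lower genes were chosen for a low value on the XVE array, which largely sets its own place in their counts. The XVE and 1 h arrays were also the 2 dimmest arrays, with 75th percentiles of the processed intensity of 341.6 and 481.8 against 555.1 to 1435.4 on the other 4, and the part of array brightness in this pattern was not tested.

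**Figure D4:**
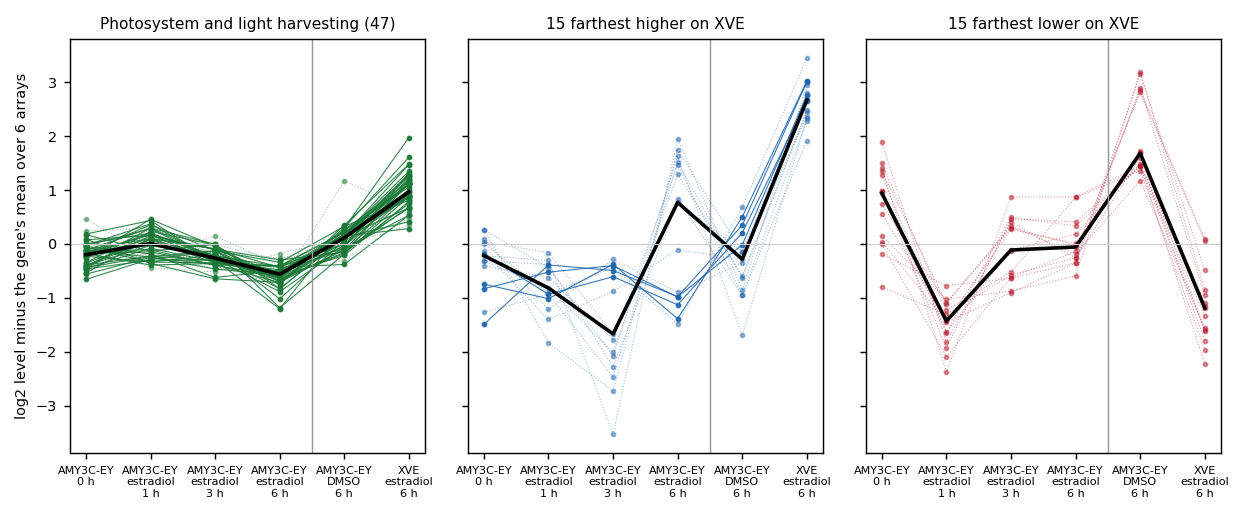
Log2 level minus the gene's own mean over the 6 arrays, with the 4 time-course arrays left of the grey line (another slide) and the DMSO and XVE arrays right of it. Thin solid lines are genes with several probes, dotted lines genes with 1 probe and the black line the median: photosystem genes are highest on the XVE array, 9 of the 15 farthest higher genes are also high at 6 h of estradiol, and 11 of the 15 farthest lower genes are low at 1 h too.

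Among the lower groups, flavonoid and anthocyanin genes had a median of -0.50, with 12 of 14 below 0, 3 by at least 2-fold and 0 higher by 2-fold. F3H, flavanone 3-hydroxylase, had a level of -2.69 on the XVE array, against -1.21 on the DMSO array, a difference of -1.48 with probes at -2.03 and -0.92. DFR, dihydroflavonol reductase, had 0.27 against 1.47, a difference of -1.20. TT7, flavonoid 3'-hydroxylase, had -2.38 against -1.37, a difference of -1.01. For these 3 enzymes the 4 time-course arrays were all above the XVE array. Their 0 h levels were 0.43 for F3H, 3.27 for DFR and 0.51 for TT7. For DFR and TT7 the DMSO array was below all 4 as well. For F3H it was above the level at 6 h of estradiol (-1.80). TT5, chalcone isomerase, had -0.12 against 0.84. UGT78D1, a flavonol rhamnosyltransferase, went the other way with -0.38 against -1.34. The XVE array was the lowest of 6 for 11 of the 14 genes, against 21.0% of all genes. The list's median level was -0.78 in XVE plants and -0.69 with DMSO, both below the time course (-0.11 to 0.55). The time course lay on another slide, and the part of the slide in these levels was not tested. MYB11, MYB12 and MYB111, regulators of flavonol synthesis, and PAP2, a regulator of anthocyanin synthesis, did not pass on both arrays.

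The median over 23 abscisic acid and water stress genes was -0.38, with 17 below 0, 3 lower by at least 2-fold and 0 higher. RD20, a caleosin, had a level of 0.40 on the XVE array, against 1.55 on the DMSO array, a difference of -1.16. COR15A, a cold-regulated chloroplast protein, had 2.87 against 3.98, and LTI30, a dehydrin, -0.90 against 0.20, both differences of -1.10. For RD20 and LTI30 both control arrays were above 0 h (-1.28 and -2.90) and below 1 h of estradiol (2.68 and 2.52). COR15B had 1.57 against 2.48 and KIN1 had 1.04 against 1.86. The XVE array lay between the untreated and the DMSO level in all 5 of these genes. Over the 11 genes of the list with several probes the median was -0.08.

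Endoplasmic reticulum folding genes had a median of -0.45, with 11 of 13 below 0 and 0 at least 2-fold apart. CRT1, a calreticulin, had a level of 3.03 on the XVE array, against 3.81 on the DMSO array. CNX1, calnexin, had 2.70 against 3.40, ERDJ3A, a J-domain cochaperone, -2.85 against -2.09, and BIP1 and BIP2, lumenal HSP70 chaperones, 1.80 against 2.39 and 0.22 against 0.72. The DMSO array was the highest of 6 for 8 of the 13 genes, against 13.1% of all genes. Cytosolic ribosomal protein genes had a median of -0.33, with 26 of 31 below 0 and 51 of their 57 probes below 0. RPL23AB was the 1 member at least 2-fold lower, with 4.23 against 5.29, and RPS28 had 3.19 against 3.88. The brightest 1850 genes of all had a median of -0.14, and the ribosomal median ran from -0.43 to -0.24 over the alternatives and was -0.56 relative to the shifted median of all genes under normexp background correction.

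Floral genes had a median of -0.42 over 11 genes, with 9 below 0. Under normexp background correction it was 0.01, or -0.12 relative to the median of all genes in that setting. CRC, a YABBY factor of carpels and nectaries, had a level of -3.45 on the XVE array, against -2.36 on the DMSO array, a difference of -1.10, with -1.95 at 0 h and 0.35 at 6 h of estradiol. AP1, a floral meristem identity factor, had -1.19 against -0.28, and FLC, a repressor of flowering, -1.21 against -0.58. SEP3, a floral organ factor, had 7.52 against 7.0. LFY, FT and AP3 did not pass on both arrays.

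AMY3, an alpha-amylase of the chloroplast whose name the construct carries, had a level of 2.47 on the XVE array, against 2.52 on the DMSO array, a difference of -0.05 from 1 probe. Both lay near the 1 h level of 2.48, above 1.33 at 0 h and below 3.87 at 6 h of estradiol. Whether this probe also reads the transgene is not known. Starch breakdown genes had a median of 0.14 over 22 genes, and starch synthesis genes 0.24 over 16. MEX1, the maltose exporter of the chloroplast envelope, was the 1 gene of these lists at least 2-fold apart, with 0.25 against -0.75. AMY2 had -2.60 against -3.27, LDA, a limit dextrinase, -0.85 against -1.48, and ISA1, an isoamylase of starch synthesis, -0.94 against -1.51. BAM5, a beta-amylase, went the other way with 0.45 against 0.95.

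Sugar starvation genes had a median of 0.28 over 11 genes, 9 of them above 0. DIN11, a dioxygenase gene induced in darkness, stood apart with a level of -3.47 on the XVE array, against -1.06 on the DMSO array, a difference of -2.41 from 1 probe. On the other arrays DIN11 went from -2.87 at 0 h to -0.81 at 1 h. DIN1 had -2.30 against -3.17, and DIN6, an asparagine synthetase, -0.97 against -1.27.

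Hormone and growth lists held a few single genes far apart while their medians were near 0. The median over 18 early auxin response genes was -0.09. Within that list IAA29, an auxin-response repressor, had a level of -0.62 on the XVE array, against -2.95 on the DMSO array, a difference of 2.33, and SAUR15, a small auxin-induced growth gene, -1.13 against -3.09, a difference of 1.96. Each of these genes was read by 1 probe. Their levels on the DMSO array were below the median of all genes there (-0.71). All other arrays were below both controls for IAA29, from -4.49 to -3.39. IAA19 and IAA6 were at -2.50 against -1.85 and -0.41 against 0.22, so the list did not share a direction. Wall-loosening genes had a median of -0.10 over 20 genes, with 3 higher and 1 lower by at least 2-fold. The expansin EXPA8 had -0.29 against -1.47, EXPA11 -1.63 against -2.68 and the xyloglucan enzyme XTH31 0.24 against -0.89, while the expansin EXPA15 had -2.22 against -1.16.

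PHB, an HD-ZIP III factor of adaxial leaf identity, was the 1 shoot meristem and boundary gene at least 2-fold apart, with 1.51 against 0.19. The other arrays held PHB between 0.04 and 1.36. PRR9, a clock repressor of the morning, had -3.14 against -4.50, a difference of 1.36, and LHY, a morning clock factor, -1.98 against -1.70. The PRR9 value rests on 1 probe, and its DMSO level was near the lowest that passed on that array (-4.57). Morning clock genes had a median of 0.29 over 8 genes and evening clock genes 0.06 over 16. For LHY both controls lay below 0 h (1.17) and 1 h (2.86), near the 6 h level of -1.19.

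Brushing was common to both groups. The median over 25 early touch and wound response genes was 0.20, with 2 at least 2-fold higher and 0 lower by 2-fold. ZAT6, a stress zinc finger factor, had a level of 8.60 on the XVE array, against 7.40 on the DMSO array, and WRKY33, a defence factor, 2.35 against 1.31. Over the 6 arrays ZAT6 was highest on the XVE array, the dimmest, and lowest at 3 h (6.74), the brightest. The part of array brightness in the ZAT6 difference was not tested. ERF5 and ERF6, ethylene response factors, had 0.02 against -0.85 and -0.02 against -0.82. Jasmonate genes had a median of 0.07 over 26 genes, with 0 at least 2-fold apart. In that list VSP1 and VSP2, late storage protein genes, were at 1.42 against 2.25 and 2.50 against 3.18, while AOS, an enzyme of jasmonate synthesis, was at 2.17 against 1.53.

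Of the 31 lists, 16 had 0 genes at least 2-fold apart. Salicylate and defence genes had a median of 0.01, with PAD3, an enzyme of camalexin synthesis, at 1.77 against 2.54. Glucosinolate genes, not among those 16 lists, had a median of -0.07, and CYP79B3, which starts indole glucosinolate synthesis, was the 1 member 2-fold apart, at 1.83 against 2.87. DNA replication genes had a median of 0.05 and mitosis genes of -0.06. Ethylene genes had a median of 0.19, cytokinin genes 0.05, gibberellin and brassinosteroid genes 0.09, light signalling genes 0.06, leaf polarity and growth genes 0.03 and phosphate, nitrate and iron genes 0.13. The cytokinin response regulators ARR5 and ARR9 were at 0.28 against -0.15 and 1.58 against 2.07, and the light signalling factor HY5 at -1.99 against -1.45. KN, the cytokinesis syntaxin, had 3 probes that disagreed, from -2.31 to 0.26. Detoxification genes had a median of 0.20, with GSTU4, a glutathione transferase, at -2.42 against -1.48 and CYP81D8 at -1.62 against -2.54. Heat shock genes had a median of -0.27 over 12 genes, which turned to 0.22 under normexp background correction (0.09 relative to the median of all genes in that setting).

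Reference genes show how far apart genes used as constant lay. Their differences ran from -0.43 for UBQ5, a ubiquitin fusion, to 0.83 for ACT8, an actin, with a median of 0.13 over 15 genes, and 0 reached 2-fold. ACT8 had a level of 1.13 on the XVE array, against 0.30 on the DMSO array, with probes at 0.62 and 1.04. UBC9, a ubiquitin-conjugating enzyme, had 1.18 against 0.67, and GAPC1, a cytosolic dehydrogenase of glycolysis, 3.23 against 2.79. UBQ10, read by 11 probes, had a difference of 0.32 with probes from 0.02 to 0.73. UBQ11 differed by 0.20, ACT7 and CBP20 by 0.15, UBC21 by 0.13, GAPC2 by 0.12, EIF4A1 by -0.04, TUB6 by -0.07, PP2AA3 by -0.10, YLS8 by -0.16 and TUA6 by -0.18. Of 10 Agilent E1A control probes, 8 were well above background on both arrays, and these ran from -0.64 to 0.29 with a median of -0.04.

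Within these arrays, repeat measurements set a floor on what a difference means. The SD of the difference over probes of 1 gene, pooled over 5093 genes, was 0.39, and the median gene had 0.23. For 13 probes with 5 repeat spots each, the SD of a difference from 1 spot had a median of 0.24 and at most 0.49. These cover measurement within an array and leave out plants, extractions and hybridisations. Over all genes the SD of the difference was 0.47, 96.0% of genes lay within 2-fold, and the range was -4.05 to 4.03. With genes split into 10 bins by level, the median difference went from 0.04 in the dimmest bin to -0.14 in the brightest, and it ran from -0.16 to 0.27 over 32 blocks of the array surface.

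Over all probes, 1587 of 29132 (5.45%) were at least 2-fold apart. Among the 4048 probes without a gene name, 396 (9.78%) were, with differences from -4.22 to 5.33. What those probes read is not known here.

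Some genes passed on 1 control array only, and for those a difference can at most be given as a lower bound. A bound is the bright level against the higher of the dim level and the lowest level well above background on the dim array, which was -4.09 on the XVE array, against -4.57 on the DMSO array. The highest levels that were not well above background were -4.01 and -4.21, so the limit is not sharp. In all, 198 genes passed on the XVE array only, 74 of them with a bound of at least 2-fold. On the DMSO array only, 896 genes passed, 49 with such a bound, while 467 of them have no lower bound because their level on the DMSO array was not above that limit. The XVE array had 67.9% of its spots well above background, against 71.0% with DMSO, and the counts on the 2 sides are not read against each other.

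The largest bounds on the XVE side were for AT5G17100, at least 9.21-fold higher, AT5G38390, at least 5.86-fold higher, AT3G33494, at least 5.75-fold higher, AT5G41390, at least 4.73-fold higher, and AT5G35945, at least 4.51-fold higher. AT5G17100 and AT3G33494 had their next highest levels at 6 h of estradiol, -1.94 and -2.86 against -1.37 and -2.05 on the XVE array. On the DMSO side LCR72, a small cysteine-rich protein, was at least 6.55-fold lower in XVE plants, with -1.38 on the DMSO array and no level above -6.41 on any other. CAX3, a vacuolar cation/proton exchanger, was at least 4.68-fold lower, and GLYI7, of the glyoxalase I family, at least 4.03-fold lower. SKIP4, an F-box protein, and AT1G69480 were each at least 3.83-fold lower.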

How the data were processed

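Expression was measured on 6 single-colour Agilent arrays, 1 per group. Per the file headers, the authors' processed intensity is background-subtracted, and the deposited files give median intensities and flags for background, saturation and outliers. The scanner software was Agilent Feature Extraction 10.5.1.1, per the submitters' processing notes. The authors' log2 table does not state its scale. Set against the scanner values, 99.9% of probes on each array lay within 0.01 of a constant offset from log2 processed intensity minus the array's 75th percentile, so scale and direction are known; column medians were -2.08 (XVE) and -2.14 (DMSO). Those log2 values deposited by the authors were used as they stand.

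A probe passed where it was well above background on both control arrays, with spots flagged as outliers left out. Probes were named through unversioned RefSeq accessions of the TAIR10.1 gene table, used for names and gene order only: 34285 matched 1 locus and 9318 none. Gene values are means over passing probes. Between 67.9% and 77.5% of spots were well above background and 0 were saturated. With 1 array per group there was no test and no p-value, and the small number of arrays limits how precise any value is. Genes at least 2-fold (1 on the log2 scale) and 4-fold apart were counted.

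The members, the 31 gene lists and 9 marker lists and the comparison itself were chosen with earlier results of these data known. Named genes are the 15 farthest in each direction, up to 10 in each direction with several probes all at least 2-fold apart, up to 5 per list with the largest differences, the 5 largest bounds in each direction, AMY3, CRC and the reference genes. Other genes named were chosen after their values were seen. Levels of different genes come from different probes and are not compared. Python 3.11.15, pandas 2.3.3, R 4.3.3 and limma 3.58.1 were used, and the computation was tested on simulated data.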

Additional observations from a re-analysis of the deposited data

How the results depend on the processing

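No paired analysis was possible because each group has 1 array, and for the same reason no array could be left out. The counts of genes at least 2-fold apart, 361 higher and 374 lower, were within 1.5 times of these values under the scanner values, quantile normalization over 6 arrays, cyclic loess, centring on the median, the brightest probe per gene, probes well above background on all 6 arrays and, chosen after seeing the data, subtraction of block medians. With no filter on dim probes the counts were 875 and 865 over 25383 genes (132 and 138 at 4-fold). With probes above the median level 182 genes were higher, 13 of them 4-fold. With the median over probes, genes with at least 2, they were 77 and 24 of 5093 (5 and 0 at 4-fold); for these 3 settings the number of genes entering differs. Under normexp background correction 231 genes were lower and 14 were 4-fold higher, and the median of all genes was 0.13 against -0.02; the cause was not tested. Scanner files hold no mean spot signal, so that setting used median signals.

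The photosystem median ran from 0.78 to 0.99 over the alternatives, and relative to the shifted median of all genes it was 0.65 under normexp. The Calvin cycle median ran from 0.39 to 0.73, that of endoplasmic reticulum folding genes from -0.45 to -0.36, that of ribosomal protein genes from -0.43 to -0.24 (relative to that median, -0.56 under normexp) and that of water stress genes from -0.39 to -0.08. List medians that moved by more than the 0.39 spread between probes were flavonoid genes with at least 2 probes (-1.01, 3 genes), floral genes under normexp (0.014) and with probes above the median level (-0.013, 5 genes), heat shock genes under normexp (0.22), stomatal markers under normexp (0.24) and with at least 2 probes (0.17, 1 gene), seed markers under quantile normalization (0.02, 3 genes) and root markers with at least 2 probes (-0.55, 1 gene). Relative to the shifted median of all genes, the normexp medians were -0.12 for floral genes, 0.09 for heat shock genes and 0.11 for stomatal markers. Of the 76 named genes at least 2-fold apart, 63 stayed so under normexp, 67 with the brightest probe and at least 71 under the other scalings; 0 changed sign. With dim probes kept, AT3G26440 moved from 2.86 to 0.51 and AT1G79910 from -3.65 to -1.51.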

Other observations

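Neighbouring genes were at least 2-fold apart in the same direction in 11 higher runs of 24 genes and 12 lower runs of 25 genes. These come from 361 higher genes (1.95%) and 374 lower genes (2.02%) among all 18497. How many runs would arise without regard to position was not worked out, so the counts are a description and not a sign of clustering. Beside FRO6 and FRO7, the higher runs held AT1G67860, AT1G67865 and AT1G67870, with differences from 1.50 to 2.66, and AT2G32870, AT2G32880 and AT2G32885, from 1.29 to 3.02. They also held LHB1B2 and LHB1B1 (1.22 and 1.68), the phloem protein genes PP2-B13 and PP2-B14 (1.07 and 1.21) and SAUR15 with AT4G38860 (1.96 and 1.48). Lower runs held LTP4 and LTP3 (-2.29 and -1.07) and AT4G22505, AT4G22513 and AT4G22517, between 1.05 and 1.32 in size. These runs were picked after their values were seen, and whether probes of adjacent copies read each other was not tested. By chromosome, between 3.64% and 4.33% of genes were at least 2-fold apart, against 3.97% of all genes.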
